A study of Ovis aries with 36 samples.

Results

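Levels of 10 genes of the insulin-like growth factor (IGF) and insulin signaling pathways were followed in 3 fetal sheep tissues under 3 maternal diets. The genes were the hormone gene IGF1, the binding protein genes IGFBP2, IGFBP3, IGFBP4, IGFBP5 and IGFBP6, the receptor genes IGF1R and INSR, the adaptor gene IRS1 and the kinase gene AKT2. They were taken by name from the 21605 gene names listed in all 3 tissues. The names of 8 genes matched the files directly, and 2 matched by a RefSeq synonym, since the files write IGFBP-5 and IGFBP-6. All 10 genes passed the filter on low counts in every tissue.

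The study asked whether the feed given to pregnant ewes alters gene expression in muscle and fat of the fetus. Polypay ewes bred to a single sire were fed individually from mid gestation until necropsy in late gestation, and 26 fetuses were taken from 15 dams. The diets were limit-fed corn (CN; starch), limit-fed dried distillers grains made from corn (DG; rich in fiber with added protein and fat) and freely offered alfalfa haylage (HY; fiber; called hay in the sample labels), and none of them was an untreated control. RNA of longissimus dorsi muscle, subcutaneous adipose tissue near the shoulder blade and perirenal adipose tissue was pooled from several fetuses or taken from 1, and 36 libraries were sequenced, with 4 pools per diet and tissue (F1 and F2 from female and M1 and M2 from male fetuses). Some dams had fetuses in more than 1 pool of their diet, so pools of a diet are not fully independent. The same pools were taken to hold in all 3 tissues. Levels are given as CPM, read counts relative to the library total after scaling by the trimmed mean of M-values (TMM) over all 36 libraries. CPM is not corrected for gene length, so each gene was compared only with itself across tissues and diets.

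IGF1 is a secreted growth factor made in fetal muscle and fat that acts through the receptor encoded by IGF1R, a receptor tyrosine kinase closely related to the insulin receptor encoded by INSR. IRS1 is phosphorylated by both receptors and passes the signal on to phosphatidylinositol 3-kinase and the AKT kinases, of which AKT2 is best known for insulin-stimulated glucose uptake in muscle and fat. The IGF binding proteins hold IGFs outside the cell, lengthen their life and raise or lower the amount that reaches the receptor.

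Counts were made on transcript models assembled separately in each tissue on the Oar_v3.1 genome, so the region behind a gene name was not always the same. IGF1 covered chr3:171245030-171328009 in muscle, and the adipose tissue loci differed from it by few bases at each end. IGFBP2 (chr2:217607091-217637044) and IGFBP5 (chr2:217646150-217669711) were neighbours on chromosome 2, which also carried IRS1 (chr2:228029597-228097992). IGFBP3 was at chr4:76174792-76183358, IGFBP4 at chr11:40250020-40263119 and IGFBP6 at chr3:133213100-133217307 in muscle. The perirenal locus of IGFBP3 was shorter (chr4:76176837-76181913) and that of IGFBP6 longer (chr3:133213131-133222384). INSR (chr5:13730570-13879145) shared its locus with the gene ENSOARG00000000404 in all 3 tissues. In muscle a second locus of the same extent carried the INSR name alone and held 0 counts. AKT2 was at chr14:48739974-48819738 in muscle and began farther along in the adipose tissues (48766370 subcutaneous, 48766360 perirenal). The extents include introns, and for some genes a tissue's locus covered only part of the region in another tissue. Counts of exons or untranslated regions were not separated.

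The IGF1R name differed most between tissues. In muscle it covered 2 loci over chr18:6920160-7306542, of which 1 was shared with PGPEP1L and held 72.1% of the counts. In both adipose tissues it covered only chr18:7159506-7219744, a stretch inside the muscle region. The perirenal IRS1 locus began at 228035262 and left out an adjoining unnamed locus that lay inside the muscle region. Tissue differences of both genes, and diet differences of IGF1R in muscle, are given below with and without these loci.

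Library totals lay between 6705766 and 29625146 counts, with 13749762 or more in muscle, up to 20272024 in subcutaneous and up to 15913813 in perirenal adipose tissue. Muscle libraries of CN held fewer counts (13749762 to 19387181) than those of DG (20370147 to 29625146). The labelled tissues were checked against marker genes. The summed level of the adipocyte markers present (8 of 9 listed) was 104.2 to 215.5 CPM in muscle, 2127 to 11040 CPM in subcutaneous and 5709 to 15150 CPM in perirenal adipose tissue. Leptin was listed at 0 in every muscle library. The brown adipocyte gene UCP1 was 375.1 to 1040 CPM in perirenal and 10.46 to 133.7 CPM in subcutaneous adipose tissue. All 6 listed brown adipocyte markers summed to 864.8 to 1728 CPM in perirenal and 228.3 to 491.6 CPM in subcutaneous adipose tissue. Their sum in muscle was 324.1 to 847.2 CPM, so the list as a whole did not set subcutaneous adipose tissue above muscle. The subcutaneous pools stood apart from each other in skeletal muscle markers, since 15 of 18 listed genes summed to between 944.4 and 148900 CPM, against 128200 to 186200 CPM in muscle and 60.37 to 691.7 CPM in perirenal adipose tissue. In 5 subcutaneous pools (CN F2, DG F1, DG F2, DG M2 and HY F2) the sum exceeded 50000 CPM. Results in subcutaneous adipose tissue are also given without these pools where a call or a direction between tissues changed, and for some other values. Fewer cells of a type and less RNA per cell cannot be told apart in these bulk samples.

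**Figure D1:**
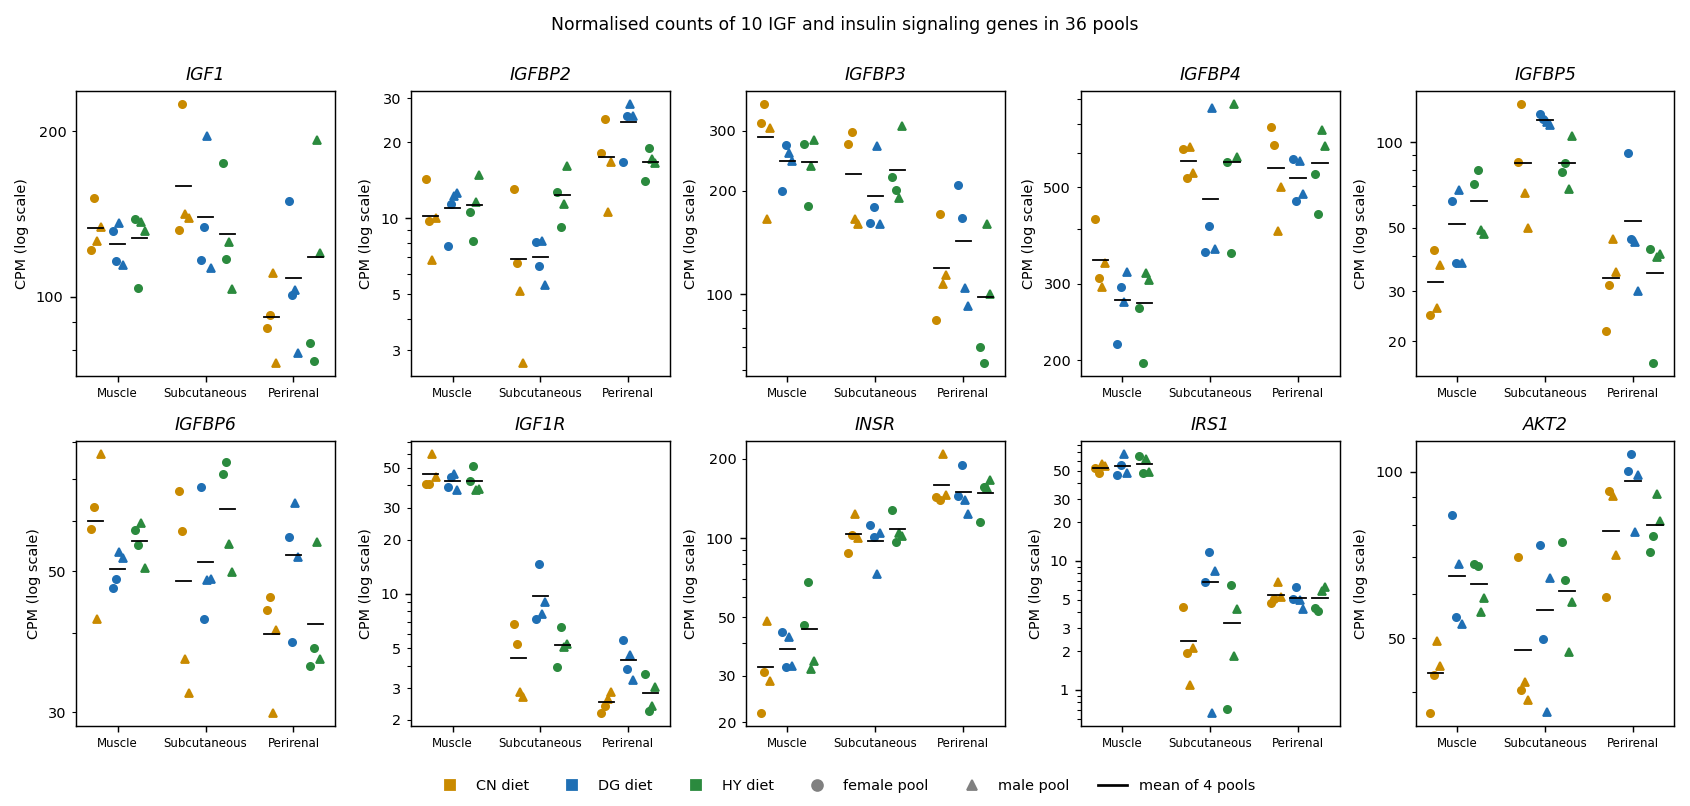
Normalised counts (CPM, log scale) of the 10 genes in each of the 36 pools, with 1 panel per gene and the pools grouped by tissue and colored by maternal diet (circles, female pools; triangles, male pools; black lines, mean of 4 pools). IGF1R and IRS1 were high in all 12 muscle pools and low in both adipose tissues, INSR was ordered muscle, subcutaneous, perirenal, and the diets of a tissue mostly overlapped.

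IGF1R and IRS1 were lower in both adipose tissues than in muscle, and INSR was higher. At FDR ≤0.05 (edgeR quasi-likelihood test over 13282 genes in 1 fit of all 36 libraries), 5 of the 10 genes differed between subcutaneous adipose tissue and muscle, where 71.9% of all genes tested did. Between perirenal adipose tissue and muscle 8 genes differed, against 79.7% of all genes tested, and between the adipose tissues 8 genes, against 66.9%. Most genes thus differed between tissues, and the counts of members called say nothing particular about them. The median log2 fold change of the 10 genes was -0.03 between subcutaneous adipose tissue and muscle, -0.27 between perirenal adipose tissue and muscle, and -0.13 between perirenal and subcutaneous adipose tissue. Over all genes tested, these medians were between -0.00422 and 0.0129.

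INSR, the insulin receptor, ranged from 21.71 to 68.12 CPM in muscle (median 33.32), from 72.98 to 128.1 CPM in subcutaneous (median 102.4) and from 114.9 to 209.3 CPM in perirenal adipose tissue (median 144.9). No muscle pool reached the lowest adipose tissue pool, whereas the adipose tissues overlapped. INSR was 2.70 times higher in subcutaneous adipose tissue than in muscle (log2 fold change 1.43 ± 0.13 SE, FDR = 1.27e-11) and still higher in perirenal adipose tissue than in muscle (log2 fold change 1.999 ± 0.13, FDR = 3.29e-15). It was also higher in perirenal than in subcutaneous adipose tissue (log2 fold change 0.57 ± 0.12, FDR = 0.00019). The 3 tissues therefore all differed from each other in INSR. The part of the second muscle locus, which held 0 counts, in the differences from muscle was not tested.

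IGF1R ran the other way. Its level was 37.53 to 59.99 CPM in muscle (median 41.51), 2.677 to 14.72 CPM in subcutaneous (median 5.912) and 2.188 to 5.538 CPM in perirenal adipose tissue (median 2.946). All muscle pools lay above all adipose tissue pools. The log2 fold change against muscle was -2.82 ± 0.14 in subcutaneous (FDR = 5.26e-18) and -3.80 ± 0.15 in perirenal adipose tissue (FDR = 7.85e-21), that is, 7.08 and 13.9 times lower. When the muscle locus shared with PGPEP1L was left out, the log2 fold changes were -0.92 (FDR = 2.32e-06) and -1.88 (FDR = 1.42e-12), so the size depended on which loci were counted. The muscle locus that remained still spanned chr18:6920160-7306542, against chr18:7159506-7219744 in the adipose tissues. Counts over the same stretch were not compared, and the part of the longer muscle locus in the difference was not tested. Between the adipose tissues the loci were the same, and IGF1R was 1.96 times lower in perirenal tissue (log2 fold change -0.97 ± 0.15, FDR = 6.91e-07). Counts behind these levels were small, with 19 to 223 reads per subcutaneous and 26 to 103 reads per perirenal library.

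IRS1, the docking protein of both receptors, was 46.53 to 67.95 CPM in muscle (median 53.81), 0.6643 to 11.75 CPM in subcutaneous (median 3.172) and 4.068 to 6.828 CPM in perirenal adipose tissue (median 5.060). The muscle pools lay within a narrow range above all other pools, and the subcutaneous pools were spread on both sides of the perirenal ones. IRS1 was 13.9 times lower in subcutaneous adipose tissue than in muscle (log2 fold change -3.80 ± 0.27, FDR = 1.08e-13) and 10.4 times lower in perirenal adipose tissue (log2 fold change -3.38 ± 0.26, FDR = 6.30e-13). Without the 5 muscle-rich pools the subcutaneous log2 fold change was -5.04 (FDR = 6.37e-14). With the adjoining unnamed locus added in perirenal tissue, that tissue's log2 fold change was -2.68 (FDR = 7.69e-11). The difference between the adipose tissues was 0.42 ± 0.27 (FDR = 0.165), but it reached 1.68 without the muscle-rich pools (FDR = 1.14e-05) and 1.12 with the added locus (FDR = 0.000484).

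AKT2 was similar in muscle (36.67 to 83.64 CPM, median 55.19) and subcutaneous adipose tissue (36.73 to 74.57 CPM, median 53.98) and higher in perirenal adipose tissue (59.24 to 107.7 CPM, median 85.87). The log2 fold change between subcutaneous adipose tissue and muscle was -0.04 ± 0.11 (FDR = 0.791). Perirenal adipose tissue was 1.51 times above muscle (log2 fold change 0.59 ± 0.11, FDR = 2.23e-05) and 1.54 times above subcutaneous adipose tissue (log2 fold change 0.63 ± 0.11, FDR = 1.64e-05; 0.82 without the muscle-rich pools, FDR = 1.36e-05). The pools of all 3 tissues overlapped for this kinase. Its locus began farther along in both adipose tissues than in muscle, and the part of this in the comparisons with muscle was not tested.

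The hormone gene IGF1 varied little between tissues. It was 103.8 to 151.3 CPM in muscle (median 131.8), 103.3 to 224.8 CPM in subcutaneous (median 133.1) and 75.88 to 193.1 CPM in perirenal adipose tissue (median 96.75), and the ranges overlapped. IGF1 was 1.35 times lower in perirenal than in subcutaneous adipose tissue (log2 fold change -0.44 ± 0.13, FDR = 0.00515). The perirenal difference from muscle was -0.29 ± 0.13 (FDR = 0.0510), and with the pool as a block, that is, comparing tissues of the same fetuses, it was -0.31 (FDR = 0.0248). It passed in 23 of 42 alternatives, DESeq2 among them (FDR = 0.0284). Subcutaneous adipose tissue and muscle differed by 0.15 ± 0.13 (FDR = 0.319).

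Of the binding proteins, IGFBP4, which mostly restrains IGF action, was 197.2 to 423.8 CPM in muscle, 352.6 to 779.9 CPM in subcutaneous and 396.5 to 690.4 CPM in perirenal adipose tissue. It was 1.83 times higher in subcutaneous (log2 fold change 0.87 ± 0.13, FDR = 8.13e-07) and 1.87 times higher in perirenal adipose tissue than in muscle (log2 fold change 0.90 ± 0.13, FDR = 2.78e-07). Without the muscle-rich pools the subcutaneous difference from muscle was 1.19 (FDR = 4.86e-09). The adipose tissues differed by 0.03 ± 0.13 (FDR = 0.845), and by -0.27 without these pools (FDR = 0.0972). IGFBP5, an extracellular matrix-associated binding protein of muscle differentiation, was 24.69 to 80.08 CPM in muscle, 50.01 to 136.5 CPM in subcutaneous and 16.85 to 91.62 CPM in perirenal adipose tissue. It was highest in subcutaneous adipose tissue, 2.02 times above muscle (log2 fold change 1.01 ± 0.18, FDR = 1.11e-05) and 2.40 times above perirenal adipose tissue (log2 fold change of perirenal against subcutaneous -1.26 ± 0.18, FDR = 4.55e-07). Muscle and perirenal adipose tissue differed by 0.25 on the log2 scale (perirenal lower, -0.25 ± 0.18, FDR = 0.206).

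IGFBP2 and IGFBP3 moved in opposite directions in perirenal adipose tissue. IGFBP2 was 6.847 to 14.92 CPM in muscle, 2.677 to 16.16 CPM in subcutaneous and 10.64 to 28.52 CPM in perirenal adipose tissue. The perirenal level was 1.77 times that of muscle (log2 fold change 0.82 ± 0.17, FDR = 7.09e-05) and 2.26 times that of subcutaneous adipose tissue (log2 fold change 1.17 ± 0.18, FDR = 7.24e-07). IGFBP2 in subcutaneous adipose tissue against muscle was -0.35 ± 0.17 (FDR = 0.0699), and with the pool as a block it was -0.38 (FDR = 0.0254). IGFBP3, the main carrier of IGFs in blood, was 166.2 to 359.5 CPM in muscle, 160.2 to 310.0 CPM in subcutaneous and 63.18 to 208.1 CPM in perirenal adipose tissue. It was 2.17 times lower in perirenal adipose tissue than in muscle (log2 fold change -1.11 ± 0.17, FDR = 5.21e-07) and 1.81 times lower than in subcutaneous adipose tissue (log2 fold change -0.86 ± 0.17, FDR = 4.86e-05). The shorter perirenal locus of IGFBP3 was counted in both comparisons, and its part in the difference was not tested. Fibroblast and stroma markers also differed, with sums of 6030 to 10260 CPM in muscle, 4617 to 11440 CPM in subcutaneous and 2121 to 8163 CPM in perirenal adipose tissue, and their part in the difference was not tested either.

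IGFBP6, which binds IGF2 with preference, was 41.98 to 76.62 CPM in muscle, 32.12 to 74.42 CPM in subcutaneous and 29.92 to 63.97 CPM in perirenal adipose tissue. It was 1.25 times lower in perirenal adipose tissue than in muscle (log2 fold change -0.32 ± 0.12, FDR = 0.0172) and 1.22 times lower than in subcutaneous adipose tissue (log2 fold change -0.28 ± 0.12, FDR = 0.0384). The latter call was lost when the muscle-rich pools were left out (-0.18, FDR = 0.311), and also without perirenal HY F2 (FDR = 0.0594), subcutaneous CN F1 (FDR = 0.101), CN F2 (FDR = 0.0742), DG F1 (FDR = 0.0897) or HY F2 (FDR = 0.0719).

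**Figure D2:**
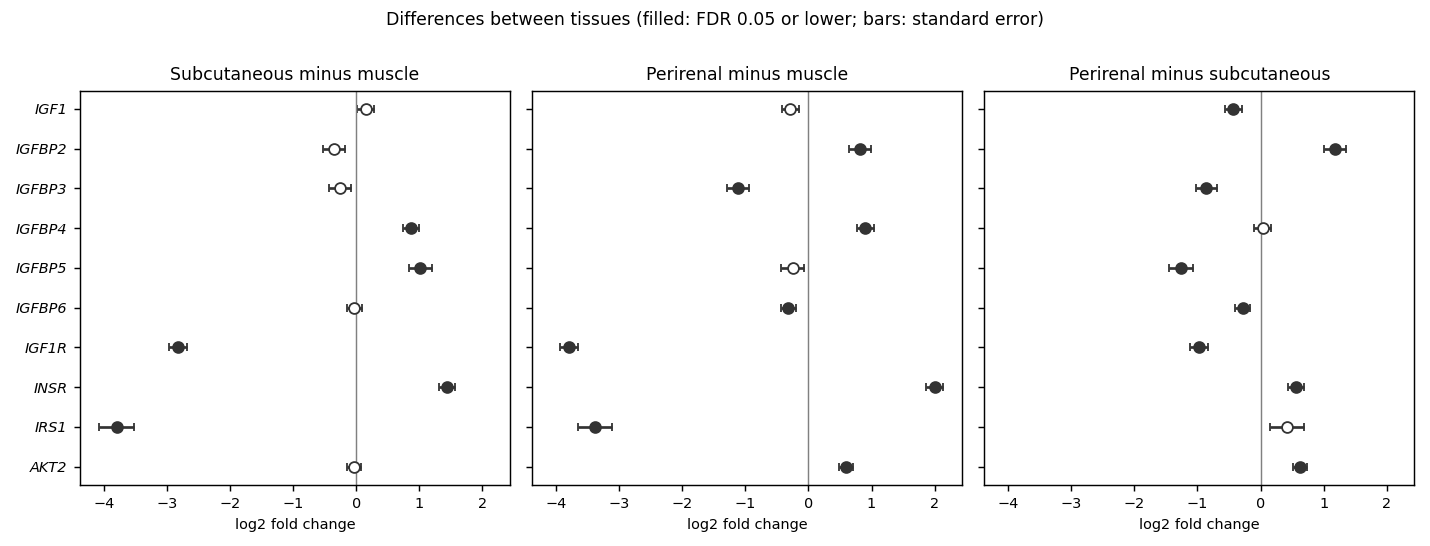
Differences between tissues for the 10 genes as log2 fold changes from the fit of all 36 libraries (points) with their standard errors (bars); filled points have FDR ≤0.05. IGF1R (-2.82 and -3.80) and IRS1 (-3.80 and -3.38) stand far to the left against muscle and INSR (1.43 and 1.999) to the right, while the binding proteins lie between -1.26 and 1.17.

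Maternal diet moved none of the 10 genes past FDR ≤0.05 in any tissue. The edgeR test was run for each pair of diets over 18156 genes and unnamed loci of muscle, 17745 of subcutaneous and 17926 of perirenal adipose tissue. In muscle, 1.02% of them differed between DG and CN, 2.95% between HY and CN, and 0% between HY and DG. In this edgeR test, no gene or locus passed in subcutaneous or perirenal adipose tissue (0% in each of the 6 comparisons). With the muscle marker level as a covariate, edgeR called 115 genes and loci in subcutaneous adipose tissue for DG against CN. DESeq2 called 267, 0 and 905 genes and loci in subcutaneous and 248, 2 and 99 in perirenal adipose tissue for DG against CN, HY against CN and HY against DG, and 2 in muscle for HY against DG. At an unadjusted p of 0.05, 2 of the 10 genes passed in muscle between DG and CN, where 16.3% of all genes and loci did, 2 between HY and CN (20.3% of all) and 0 between HY and DG (2.18% of all). In subcutaneous adipose tissue the numbers were 1, 0 and 1 for the same comparisons, against 15%, 4.37% and 18.2% of all genes and loci. In perirenal adipose tissue they were 1, 0 and 2, against 9.85%, 2.34% and 9.96%. At FDR ≤0.20, AKT2 passed in muscle between DG and CN (7.01% of all), AKT2 and IGFBP5 between HY and CN (15.9%), and IGF1R in subcutaneous adipose tissue between HY and DG (10.9%). By DESeq2, AKT2 passed FDR ≤0.05 in muscle between DG and CN, AKT2 and IGFBP5 passed between HY and CN, and no other member passed in any diet comparison. Comparisons that share a diet share its pools. Pools of a diet pair that did not overlap in either direction were found for 8 combinations of member and comparison, 3 of them in muscle, 4 of them subcutaneous and 1 perirenal, all given below. Between HY and DG in muscle, between HY and CN in subcutaneous and between HY and CN and HY and DG in perirenal adipose tissue, no member was separate, where 1.94%, 2.75%, 1.63% and 5.37% of all genes and loci were.

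In muscle, AKT2 and IGFBP5 came closest to the threshold, both being lower in fetuses derived from CN. AKT2 was 36.67, 42.88, 49.39 and 44.47 CPM in pools F1, F2, M1 and M2 of CN. It was 83.64, 54.64, 68.05 and 53.02 CPM in those of DG. It was 68.22, 67.42, 55.74 and 59.12 CPM in those of HY. Every DG and HY pool was above every CN pool, and DG and HY overlapped. The log2 fold change was 0.59 ± 0.15 for DG against CN (1.504 times; FDR = 0.0751) and 0.55 ± 0.15 for HY against CN (1.47 times; FDR = 0.0589). Complete separation of the pools was seen for 8.77% of all genes and loci between DG and CN and for 12.9% between HY and CN. By DESeq2 the same differences had FDR = 0.0136 and FDR = 0.0149. The HY against CN difference also passed without muscle DG F1 (FDR = 0.0223) and in a fit of the 2 diets only (FDR = 0.0398). HY and DG differed by -0.04 ± 0.15 (FDR = 0.9998).

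IGFBP5 was 24.69, 41.84, 26.16 and 37.11 CPM in pools F1, F2, M1 and M2 of CN. In DG it was 62.41, 37.57, 68.16 and 37.79 CPM, and in HY 71.25, 80.08, 49.21 and 47.79 CPM. All HY pools were above all CN pools, and the DG pools were split between F1 and M1, near the highest HY pools, and F2 and M2, within the CN range. HY exceeded CN by 0.95 ± 0.25 on the log2 scale (1.93 times; FDR = 0.0527), and DG against CN gave 0.67 ± 0.24 (FDR = 0.209). By DESeq2 the former had FDR = 0.00697. It also passed without muscle CN F2 (1.10, FDR = 0.0272), without muscle DG F1 (FDR = 0.0457) and with the 2 diets only (FDR = 0.0485).

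Among the 10 genes in muscle, 5 had a higher mean in DG than in CN and 5 in HY than in CN, with median log2 fold changes of -0.02 and 0.03, against -0.00315 and -0.0182 over all genes and loci. IGF1, IGF1R and IRS1 had log2 fold changes between -0.13 and 0.10 against CN, with standard errors of 0.12 to 0.14. For IGF1R this holds for the sum of its loci, which was -0.13 ± 0.14 in DG (FDR = 0.687) and -0.11 ± 0.14 in HY (FDR = 0.704). When the locus shared with PGPEP1L was left out, the sign turned, and IGF1R was 0.51 ± 0.21 in DG (unadjusted p = 0.0276, FDR = 0.251) and 0.62 ± 0.21 in HY (unadjusted p = 0.00927, FDR = 0.112). The counts of members above and the diet pattern of IGF1R in muscle thus depend on which loci are counted. IGFBP4 was -0.30 ± 0.17 in DG and -0.31 ± 0.17 in HY (FDR = 0.406 and 0.321). INSR was 0.23 ± 0.25 and 0.50 ± 0.25 (FDR = 0.685 and 0.283), with pool HY F2 (68.12 CPM) above the other HY pools (31.97 to 46.65 CPM).

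**Figure D3:**
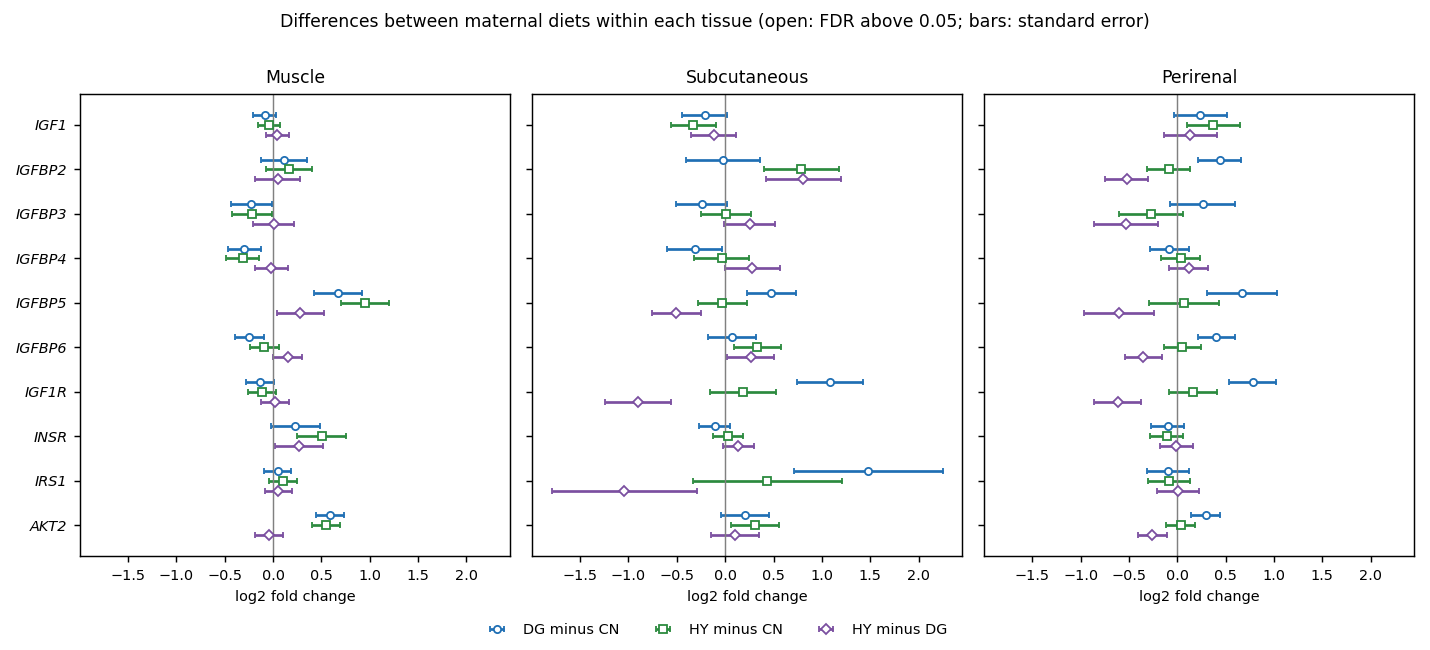
Differences between maternal diets for the 10 genes within each tissue as log2 fold changes (points; circles, DG minus CN; squares, HY minus CN; diamonds, HY minus DG) with their standard errors (bars); all points are open since none had FDR ≤0.05. The members past an unadjusted p of 0.05 in at least 1 comparison are AKT2 and IGFBP5 in muscle, IGF1R in both adipose tissues and IGFBP2 in perirenal adipose tissue.

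In subcutaneous adipose tissue, IGF1R had the lowest FDR of the 10 genes between DG and CN and between HY and DG. It was 6.836, 5.288, 2.854 and 2.677 CPM in pools F1, F2, M1 and M2 of CN, and 7.290, 14.72, 7.687 and 9.067 CPM in those of DG. The HY pools had 3.935, 6.535, 5.074 and 5.271 CPM. Every DG pool was above every CN pool and every HY pool, and CN and HY overlapped. The log2 fold change was 1.08 ± 0.34 for DG against CN (2.12 times; FDR = 0.263) and -0.90 ± 0.34 for HY against DG (FDR = 0.198). In these comparisons 6.76% and 9.26% of all genes and loci had separate pools. The DG difference from CN was 0.85 without the muscle-rich pools, which leaves 1 DG pool (FDR = 0.787), and 1.005 with the muscle marker level as a covariate (FDR = 0.136).

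IGFBP2 in subcutaneous adipose tissue had its highest mean in HY. Its level was 13.07, 6.653, 5.165 and 2.677 CPM in pools F1, F2, M1 and M2 of CN and 8.051, 6.468, 8.161 and 5.440 CPM in those of DG. In HY it was 12.71, 9.202, 11.38 and 16.16 CPM. The HY pools were all above the DG pools, while CN lay on both sides. The log2 fold change was 0.81 ± 0.38 for HY against DG (FDR = 0.288) and 0.79 ± 0.39 for HY against CN (FDR = 0.941), the latter with the lowest unadjusted p of the 10 genes in that comparison. IGFBP5 was also separate between HY and DG, with 114.6 to 126.0 CPM in DG and 68.73 to 105.5 CPM in HY (log2 fold change -0.51 ± 0.25, FDR = 0.309). IRS1 differed by 1.48 ± 0.77 for DG against CN (FDR = 0.368), and it also followed the muscle markers of the pools, as given below. With the muscle marker level as a covariate its difference was 0.67 ± 0.45 (FDR = 0.465). The sign turned without the muscle-rich pools (-1.97), which leaves 1 DG pool.

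In perirenal adipose tissue, IGF1R was again highest in DG. It was 2.188, 2.392, 2.611 and 2.856 CPM in pools F1, F2, M1 and M2 of CN and 5.538, 3.852, 4.556 and 3.326 CPM in those of DG. In HY it was 3.584, 2.242, 2.396 and 3.037 CPM. All DG pools were above all CN pools, as was the case for 6.5% of all genes and loci in one direction or the other, and HY overlapped both. On the log2 scale the difference was 0.78 ± 0.24 for DG against CN (1.72 times; FDR = 0.261) and -0.62 ± 0.24 for HY against DG (FDR = 0.435).

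IGFBP2 in perirenal adipose tissue was 18.09, 24.84, 10.64 and 16.75 CPM in pools F1, F2, M1 and M2 of CN. In DG it was 16.78, 25.49, 28.52 and 25.55 CPM, and in HY 14.01, 19.01, 17.21 and 16.54 CPM. The DG pools other than F1 were above all HY pools, and the log2 fold change of HY against DG was -0.52 ± 0.22 (FDR = 0.469). Between HY and CN, all 10 genes had FDR = 0.9996 in this tissue. Their log2 fold changes there ranged from -0.27 (IGFBP3) to 0.37 (IGF1).

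**Figure D4:**
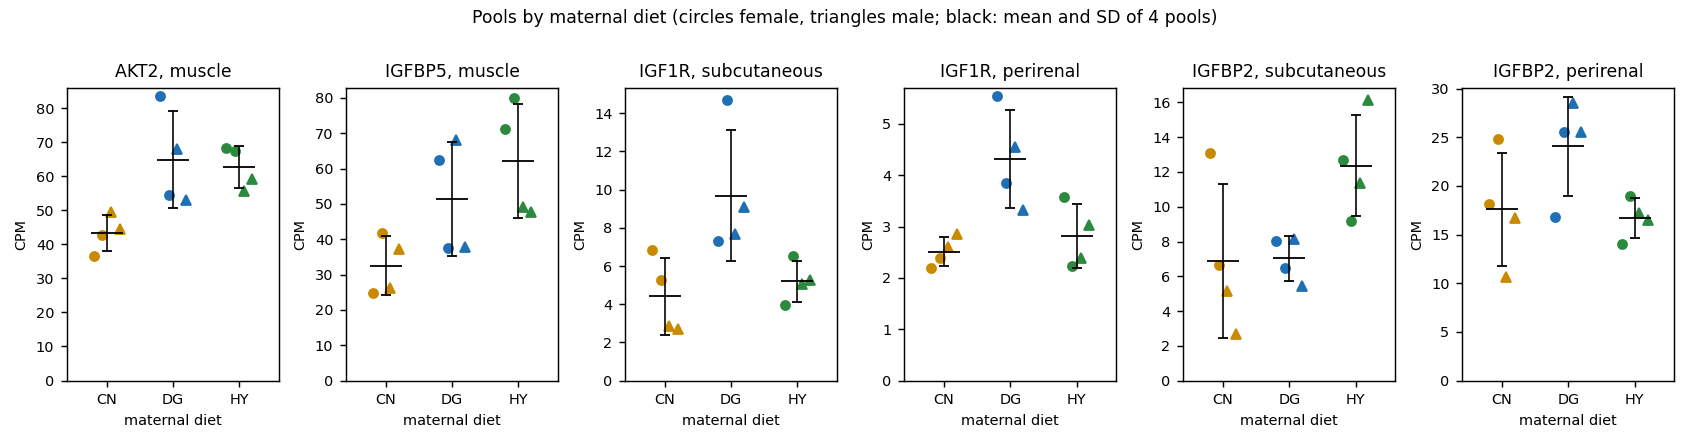
Normalised counts (CPM, axis from 0) by maternal diet for AKT2 and IGFBP5 in muscle and for IGF1R and IGFBP2 in both adipose tissues (circles, female pools; triangles, male pools; black, mean and SD of 4 pools). All DG and HY pools lie above the CN pools for AKT2 in muscle, all DG pools lie above the CN pools for IGF1R in both adipose tissues, and the mean of IGFBP2 is highest in HY in subcutaneous and in DG in perirenal adipose tissue.

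Whether the diets acted differently in different tissues was tested as the difference of a diet contrast between 2 tissues in the fit of all 36 libraries. Of the 10 genes, only IGFBP2 passed FDR ≤0.05, in 1 of 9 such tests. The difference of HY against DG in perirenal minus subcutaneous adipose tissue was -1.34 ± 0.43 on the log2 scale (FDR = 0.0486), and 7.59% of all genes tested passed there. Of the other 8 tests, 5 called no gene by edgeR (0%) and 0 or 1 by DESeq2, and 0.00753% (DG against CN) and 0.444% (HY against DG) of all genes passed in subcutaneous tissue minus muscle and 0.0527% (DG against CN) in perirenal minus subcutaneous tissue. At an unadjusted p of 0.05, 2, 2 and 1 members passed for DG against CN in subcutaneous minus muscle, perirenal minus muscle and perirenal minus subcutaneous tissue, against 9.37%, 3.04% and 11.8% of all genes. The numbers were 1, 0 and 1 for HY against CN (6.78%, 6.98% and 6.9% of all) and 1, 0 and 2 for HY against DG (19.1%, 2.43% and 24.9% of all). At FDR ≤0.20, IGF1R also passed for HY against DG in subcutaneous tissue minus muscle (12.9% of all) and IGFBP6 in perirenal minus subcutaneous tissue (24.8% of all). DESeq2 called IGFBP2 in the same test and no other member in any of the 9. IGFBP2 went down from DG to HY in the perirenal means and up in the subcutaneous means, as the pool values above show, although neither diet difference passed on its own. The call held with RLE size factors, DESeq2 and the pool as a block. It was lost without the filter on low counts (FDR = 0.0575), with the muscle marker level as a covariate (FDR = 0.0526) and without the muscle-rich pools (FDR = 0.219). It was also lost in 20 of 36 fits with 1 library left out, with FDR up to 0.103. These libraries were muscle CN F2, CN M2, DG F2, DG M1, DG M2, HY F1, HY M1 and HY M2, perirenal DG F2, DG M1, DG M2, HY F1, HY M1 and HY M2, and subcutaneous CN F2, DG F2, DG M2, HY F1, HY M1 and HY M2. The log2 difference itself stayed between -1.50 and -1.24 in all alternatives.

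For IGF1R the difference of DG against CN between subcutaneous adipose tissue and muscle was 1.22 ± 0.33 (FDR = 0.225), and that between perirenal adipose tissue and muscle was 0.93 ± 0.34 (FDR = 1). Its difference of HY against DG between subcutaneous adipose tissue and muscle was -0.90 ± 0.32 (FDR = 0.133). This passed without subcutaneous HY F2 (-1.03, FDR = 0.0465). With only the muscle locus that carries the IGF1R name alone, the DG against CN differences were 0.60 (FDR = 0.591) and 0.29 (FDR = 1), and the HY against DG difference was -0.998 (FDR = 0.133). For IGFBP5 the difference of HY against CN between subcutaneous adipose tissue and muscle was -0.94 ± 0.44 (FDR = 0.723). A stronger diet response of either gene in 1 tissue was thus not shown by the test.

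The muscle content of the subcutaneous pools moved with 2 of the 10 genes. In a fit with diet and the mean log2 level of the muscle markers, IRS1 rose by 0.46 ± 0.09 on the log2 scale per log2 unit of muscle markers (FDR = 0.00238). IGFBP4 fell by 0.13 on the log2 scale per unit (SE 0.03, FDR = 0.00975). Over all genes and loci, 23.4% moved with the markers at FDR ≤0.05. The other members did not pass, with FDR from 0.206 (IGF1) to 0.974 (IGFBP2). IRS1 was 0.6643 CPM in DG M1 and 0.7063 CPM in HY F1, the pools with the lowest marker sums (1036 and 944.4 CPM), where 7 reads each were counted. It was 11.75, 8.328, 6.910 and 6.535 CPM in DG F2, DG M2, DG F1 and HY F2, which had marker sums of 69410 to 148900 CPM. The fifth muscle-rich pool, CN F2, had 1.933 CPM of IRS1 at a marker sum of 66040 CPM. IGFBP4 was 352.6 to 407.5 CPM in DG F1, DG F2, DG M2 and HY F2 and 525.5 to 779.9 CPM in the other 8 pools. The marker sum of DG F1 (148900 CPM) lay within the muscle range of 128200 to 186200 CPM. Its IGF1R (7.290 CPM) and IRS1 (6.910 CPM) were still below all muscle pools, and its INSR (111.9 CPM) was above them. Its IGFBP4 (354.0 CPM) lay within the muscle range. The part of the separate assemblies in the tissue differences was not tested.

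**Figure D5:**
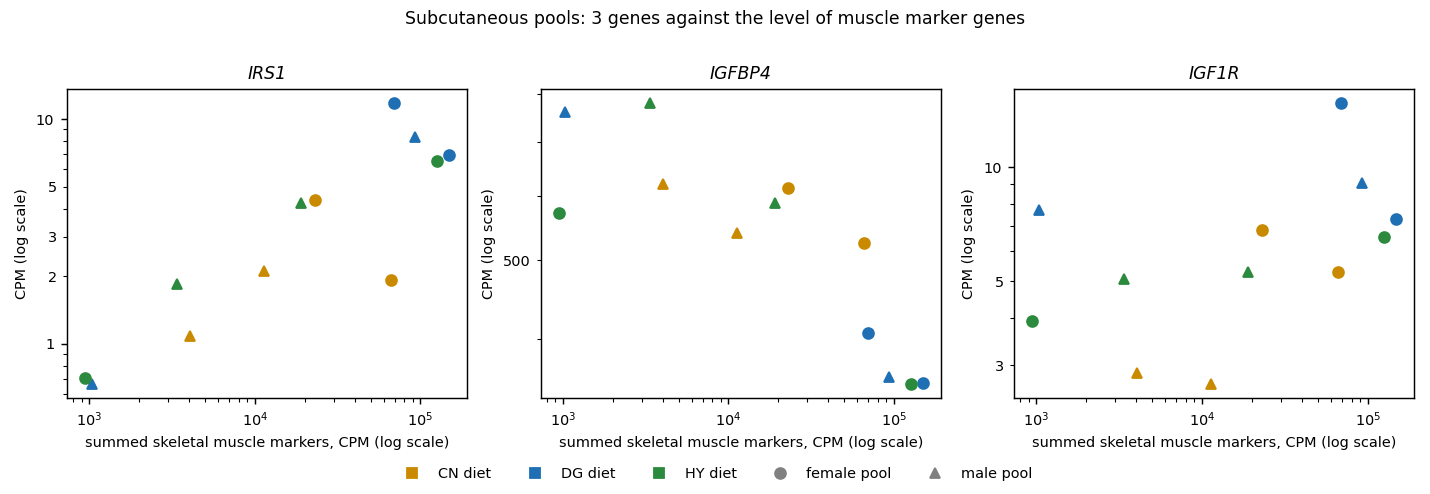
Normalised counts (CPM, log scale) of IRS1, IGFBP4 and IGF1R in the 12 subcutaneous pools against the summed level of skeletal muscle markers in the same pool (CPM, log scale), colored by diet (circles, female pools; triangles, male pools). IRS1 is lowest in the 2 pools with the lowest marker sums, IGFBP4 is lowest in 4 of the 5 pools above 50000 CPM, and IGF1R is higher in all 4 DG pools than in the other pools.

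Because 3 of the 4 DG pools but 1 CN pool and 1 HY pool were rich in muscle markers, diet and muscle content cannot be fully told apart in subcutaneous adipose tissue. For IGF1R the slope on the markers was 0.10 ± 0.05 (FDR = 0.210).

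Male and female pools were compared within each tissue with diet in the model. None of the 10 genes differed at FDR ≤0.05 in edgeR or DESeq2, where by edgeR 0% of all genes and loci differed in muscle and subcutaneous tissue and 0.0223% in perirenal adipose tissue. At an unadjusted p of 0.05, 1 of the 10 passed, IGFBP6 in subcutaneous adipose tissue (14.8% of all), and 0 passed in muscle (3.84% of all) and perirenal adipose tissue (3.26% of all). It was lower in male pools there (log2 fold change -0.49 ± 0.15, FDR = 0.281). Its values were 66.98 and 57.83 CPM in female and 36.43 and 32.12 CPM in male CN pools, 68.02 and 42.11 against 48.49 and 48.62 CPM in DG, and 71.24 and 74.42 against 55.20 and 49.87 CPM in HY. The sexes were separate in CN and HY and overlapped in DG. With 2 pools per sex and diet this says little, and its share over all genes and loci was not counted. The muscle-rich subcutaneous pools were CN F2, DG F1, DG F2 and HY F2 of females and DG M2 of males. Sex and muscle content thus cannot be fully told apart there. The male CN libraries also held fewer counts (7109975 and 6705766) than the female ones (15064066 and 18220713).

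Other genes of the pathway were taken from lists of ligands, adaptors, kinases and outputs. Of 84 listed genes, 71 were tested in muscle. Between DG and CN 1 passed FDR ≤0.05 (1.02% of all genes and loci), between HY and CN 2 (2.95% of all), all of them higher outside CN, and none passed between HY and DG. SREBF1, a transcription factor of lipid synthesis induced by insulin, was higher in DG (log2 fold change 1.01 ± 0.21, FDR = 0.0394) and in HY (0.95 ± 0.21, FDR = 0.0353) than in CN. PHLPP1, a phosphatase that removes phosphate from AKT, was higher in HY than in CN (1.001 ± 0.21, FDR = 0.0299). The mean change was positive for 53 of the 71 genes in DG and 51 in HY against CN, with medians of 0.19 and 0.14. Of all 18156 genes and loci, 9002 and 8690 had a positive change, with medians of -0.00315 and -0.0182. None of the 71 listed genes tested in subcutaneous or the 70 in perirenal adipose tissue passed in any diet comparison.

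In the comparison of perirenal adipose tissue with muscle, 63 of 72 listed genes passed, where 79.7% of all genes tested did, 23 of them higher and 40 lower, with a median of -0.32 against 0.00496 for all genes tested. Of the ligands, IGF2, the fetal growth factor that shares the receptor with IGF1, was 1884 to 4366 CPM in muscle, 987.2 to 4563 CPM in subcutaneous and only 13.28 to 60.87 CPM in perirenal adipose tissue (log2 fold change of perirenal against muscle -6.25 ± 0.26, FDR = 3.30e-20). The growth hormone receptor gene GHR, which acts upstream of IGF1, was lower in the same order (log2 fold change -0.95 ± 0.16 in subcutaneous and -2.10 ± 0.16 in perirenal adipose tissue against muscle). The adaptor gene GAB1 was lower in both adipose tissues (-2.66 ± 0.13 and -3.14 ± 0.13). All differences named here passed FDR ≤0.05. TRIB3, an inhibitor of AKT, was higher in both (4.998 ± 0.26 and 5.99 ± 0.26). SHC1, which links the receptors to the MAPK branch, was lower in perirenal adipose tissue than in muscle (-2.14 ± 0.12). Of the mTOR branch, EIF4EBP1, the repressor of translation, was lower (-3.12 ± 0.36) and MTOR higher (1.43 ± 0.10).

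Subcutaneous adipose tissue differed from muscle in 57 of 72 listed genes (19 higher, 38 lower; 71.9% of all genes tested), and from perirenal adipose tissue in 50 (in perirenal tissue, 22 higher and 28 lower; 66.9% of all). CAV1 encodes a coat protein of caveolae, where insulin receptors cluster in fat cells. CAV1 was 974.2 to 1783 CPM in subcutaneous against 37.94 to 141.3 CPM in perirenal adipose tissue and 56.00 to 155.7 CPM in muscle. SOCS2, an inhibitor of growth hormone signaling, was 4.367 to 11.95 CPM in subcutaneous against 42.88 to 68.58 CPM in perirenal adipose tissue and 53.74 to 117.5 CPM in muscle. The subcutaneous pools did not overlap those of the other tissues for these 2 genes. SOCS2 was at most 11.95 CPM also in subcutaneous DG F1 and HY F2, where the muscle markers summed to 148900 and 126400 CPM. Locus extents were compared between tissues for the members only, not for the other listed genes. The part of the separate assemblies in the tissue differences of these other genes was not tested.

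Genes whose level followed that of a member most closely were sought among about 5940 genes with at least 10 CPM in each tissue, after removing the mean of each tissue. These correlations describe 36 libraries that share dams, pools and muscle content, and they carry no test. IRS1 was most like PSTPIP2 (Pearson r = 0.90) and CAP2 (r = 0.90), IGFBP4 most like HDAC1 (r = 0.86) and MANSC1 (r = 0.85), and AKT2 most like THOP1 (r = 0.84) and AGPAT6 (r = 0.82). IGFBP2 was most like RABAC1 (r = 0.83), IGFBP5 most like GSN (r = 0.82), IGF1R most like STK24 (r = 0.81) and IGF1 most like ADAM12 (r = 0.79). IGFBP6 was most like PRPF19 (r = 0.74) and IGFBP3 most like MGP (r = 0.73). Among the members themselves, the highest r was 0.60 (IGFBP2 and IGFBP6) and the lowest -0.56 (IGFBP4 and AKT2).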

How the data were processed

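Single-end RNA-seq reads of 36 pooled libraries were aligned by the authors to Oar_v3.1 with TopHat2 2.0.4, and transcripts were assembled with Cufflinks 2.1.1 and merged with the annotation for each tissue. Versions are from the paper and the submitters' processing notes, which also name HTSeq. The deposited values are raw read counts per locus, without normalization. Reads with very many equally good locations were discarded in the alignment. How the counting treated the remaining reads with several locations, and strand, is not given in the sources used here.

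From these counts, loci with the same gene name were summed and unnamed loci were kept singly. Total counts per library ranged from 6705766 to 29625146 (median 14406914), which sets the precision of low genes, and 3 counts correspond to between 0.1 and 0.45 CPM. Genes were filtered with filterByExpr (minimum count 10, minimum total 15), scaled by TMM and tested with edgeR 4.0.16 (glmQLFit, robust; R 4.3.3), with Benjamini-Hochberg adjustment over all genes and loci tested and a threshold of FDR ≤0.05. Diets were compared within each tissue over all 12 pools with no covariate, sexes with diet as a term, and tissues and differences of diet effects in 1 fit of 36 libraries joined by gene name. CPM values use the scaling of the latter fit. Standard errors were derived from the log2 fold change and the square root of its F statistic and are approximate. The scripts were tested on simulated data.

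The 10 genes and all lists were chosen with earlier results of these data known. All 10 are reported in each comparison; a member past the threshold, or where none passed in a tissue the member with the lowest FDR, was to be given pool by pool. Between tissues, ranges of the 12 pools stand for the pools. Further members named in diet comparisons were chosen after their values were seen. Listed pathway genes are named if past FDR ≤0.05 for diets (at most 8) and, between tissues, if among the 2 of each list with the largest change. Some of the genes this rule names are not reported here.

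The paper lists 1 set of pools, so a pool was taken to hold the same fetuses in all tissues, and the tissue fits were repeated with the pool as a block. Deviations of the same pool in different tissues correlated with a mean r of 0.08 (36 pairs, -0.20 to 0.27), against -0.03 for other pools of the diet. In the 54 pairs of libraries of a group, counts differed by more than sampling noise (chi-square per degree of freedom 9.93 to 289.4). P-values measure the spread between pools, some of which share a dam.

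Alternatives were RLE size factors, no filter, DESeq2 1.42.0, FDR ≤0.20, single loci, 2 diets only, a replicate block, a muscle marker covariate and each library left out. Chosen after seeing the data were leaving out the 5 subcutaneous pools above 50000 CPM of muscle markers, the same covariate in the joint fit, and other loci for IGF1R and IRS1.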

Additional observations from a re-analysis of the deposited data

Results flagged for a closer look

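Groups of 4 pools were searched for a pool far from the other 3. In 6 of 90 groups of member, tissue and diet such a pool was found, where chance gives about 1 in 20. In perirenal adipose tissue, INSR was 209.3 CPM in CN M1 against 140.1 to 145.6 CPM in the other CN pools, IGFBP5 was 16.85 CPM in HY F2 against 39.64 to 42.11 CPM, and IGFBP6 was 55.68 CPM in HY M1 against 35.43 to 37.86 CPM. In subcutaneous adipose tissue, IGF1 was 224.8 CPM in CN F2 against 132.2 to 141.5 CPM, AKT2 was 69.98 CPM in CN F1 against 38.74 to 41.73 CPM, and IGFBP4 was 761.0 CPM in DG M1 against 354.0 to 407.5 CPM. For CN F2 the paper lists only 1 fetus. CN F2 had 66040 CPM of summed skeletal muscle markers, against 4038 to 23000 CPM in the other subcutaneous CN pools, and 11440 CPM of stroma markers, against 4690 to 6213 CPM. DG M1 had 1036 CPM of muscle markers, against 69410 to 148900 CPM in the other subcutaneous DG pools. IGFBP4 moved with the muscle markers in the fit reported above, and IGF1 had a slope of -0.06 ± 0.03 per log2 unit of them (FDR = 0.206). The part of the stroma markers in the level of IGF1 was not tested.

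The response of IGFBP2 to HY against DG differed between perirenal and subcutaneous adipose tissue by -1.342 on the log2 scale (FDR = 0.0486, edgeR). In subcutaneous adipose tissue 4 of 4 HY pools were above all DG pools, and in perirenal adipose tissue 3 of 4 DG pools were above all HY pools.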

How the results depend on the processing

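The counts of members past FDR ≤0.05 between tissues stayed within 5 to 6 (subcutaneous and muscle), 8 to 10 (perirenal and muscle) and 7 to 9 (the adipose tissues) in all alternatives run. With DESeq2, 1 member passed between DG and CN and 2 between HY and CN in muscle; with the 2 diets only, 2 passed between HY and CN, and leaving out 1 library gave 0 to 2. At FDR ≤0.20, members passed in muscle between DG and CN (1) and HY and CN (2), in subcutaneous adipose tissue between HY and DG (1), and for HY against DG in subcutaneous tissue minus muscle (1) and in perirenal minus subcutaneous tissue (2). At FDR ≤0.05, the count for HY against DG in subcutaneous tissue minus muscle was 0, and 0 to 1 with 1 library left out. That in perirenal minus subcutaneous tissue was 1, and it was 0 without the filter, without the muscle-rich pools and with the muscle covariate, and 0 to 1 with 1 library left out.

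Among the tissue differences and the diet differences between tissues reported here, signs turned where a difference was near 0 or the muscle-rich pools were left out. The perirenal minus subcutaneous value of IGFBP4 was -0.0075 without the filter, -0.27 without the muscle-rich pools and -0.0466 to 0.11 with 1 library left out. The subcutaneous minus muscle value was -0.12 to 0.0129 for AKT2 and -0.0991 to 0.0132 for IGFBP6 with 1 library left out. The DG minus CN difference of IRS1 turned without the muscle-rich pools to -2.09 (subcutaneous minus muscle, FDR = 0.268) and 1.98 (perirenal minus subcutaneous, FDR = 0.423); this leaves 1 subcutaneous DG pool, M1, with 7 reads of IRS1. The diet differences of IGF1R in muscle turned with its own locus alone, from -0.13 to 0.51 (DG against CN) and from -0.11 to 0.62 (HY against CN). The cause was not tested.

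Calls gained with 1 library left out were IGFBP2 between subcutaneous tissue and muscle (muscle CN M1, DG F1 or HY F2, subcutaneous CN F1 or HY M2; FDR down to 0.00373), IGF1 between perirenal tissue and muscle (18 of 36 libraries; FDR down to 0.00153 without perirenal HY M1), IGFBP5 between perirenal tissue and muscle (perirenal DG F1, FDR = 0.0395) and IRS1 between the adipose tissues (subcutaneous HY F2, FDR = 0.0423). The pool as a block changed the calls of IGFBP2 and IGF1 given in the report and no other member's. Within a tissue a pool name gives the sex of the fetuses and a number, and the same name in another diet holds other fetuses. Pools of the same name in different diets correlated with a mean r of 0.19 in subcutaneous tissue (12 pairs, -0.42 to 0.64). The mean r was -0.04 in muscle and 0.05 in perirenal adipose tissue. With the replicate block 0 members passed in each of the 9 diet comparisons.

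The number of all genes and loci past FDR ≤0.05 in muscle moved from 186 (DG against CN) to between 2 and 692 and from 536 (HY against CN) to between 30 and 1398. It was 0 in the adipose tissues and reached 905 with DESeq2, 281 with the replicate block and 567 with 1 library left out, all for HY against DG in subcutaneous tissue, and 75 with 1 library left out for DG against CN in perirenal tissue. For DG against CN it was 115 in subcutaneous tissue with the muscle marker covariate. In perirenal tissue that comparison gave 35 without the filter, 21 with single loci, 13 with the 2 diets only and 5 with RLE size factors. For IGFBP2's test the number moved from 1008 to between 122 and 1962. Depth limits IGF1R and IRS1 in adipose tissue most, where libraries held as few as 7 reads.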

Other observations

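Other genes of the insulin pathway also moved with the muscle markers of the subcutaneous pools. Of 71 listed genes tested, 28 passed FDR ≤0.05, with 18 higher and 10 lower in muscle-rich pools, against 23.4% of all genes and loci. PYGM, the muscle glycogen phosphorylase, rose by 0.94 ± 0.05 on the log2 scale per log2 unit of muscle markers, and SLC2A4, the insulin-responsive glucose transporter, by 0.19 ± 0.03. IGF2 rose by 0.21 ± 0.04.

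The response to HY against DG differed between perirenal and subcutaneous adipose tissue for 10 of 72 listed genes at FDR ≤0.05, against 7.59% of all genes tested, with 7 differences positive and 3 negative. In the growth hormone axis 4 of 5 genes passed, including STAT5A, a transcription factor downstream of the receptor (-1.06 ± 0.26, FDR = 0.0179), SOCS2 (1.03 ± 0.26, FDR = 0.0200) and the kinase gene JAK2 (0.73 ± 0.19, FDR = 0.0234). TSC2, which restrains mTOR, had the lowest FDR of the listed genes (-1.28 ± 0.28, FDR = 0.0152). Because 3 of 4 subcutaneous DG pools were rich in muscle markers and 1 of 4 HY pools was, diet and muscle content cannot be fully told apart in these differences.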
